A study of Mus musculus with 9 samples.

Results

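The comparison set 3 libraries of mouse CD4+ T cells with a Fosl2 transgene (Fosl2 Tg) against 3 control libraries, which the labels give as wild type, out of 9 libraries in all. The cells were naive CD4+ T cells, sorted by surface markers, low CD44 among them, and all groups were then stimulated for 24 h with antibodies against CD3 and CD28. The sources used here give neither the promoter that drives the transgene nor the strain and age of the mice. Nothing in the labels ties the 3 libraries of each group to different mice or cultures. Their spread, which every p-value below is measured against, may therefore be technical. The remaining 3 libraries, labelled Fosl2 KO with the genotype Fosl2fl/fl CD4-cre+ (a Cre that deletes in T cells), entered here the filter on low values and the estimate of the spread. Of the genes tested, 77 averaged under 1 FPKM over the 6 compared libraries and passed the filter through these 3, and 27 of them were called. Ccl1, Dusp14, Egr4 and Prf1, described below, are among the 77. In them Fosl2 went against that label, as given beside the Fosl2 values. Of 23849 genes listed, 10340 had a mean FPKM (fragments mapped to a gene, corrected for transcript length and library size) of at least 1 over the 9 libraries and were compared.

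Fosl2 is a FOS family member of AP-1, a group of transcription factors that bind DNA as dimers of a FOS protein with a JUN protein, or with relatives such as BATF and ATF proteins. In T cells AP-1 joins NFAT and NF-kB downstream of the T cell receptor and CD28 and is needed for IL-2 production. Naive T cells given both signals leave quiescence, grow, switch on cytokine, chemokine and co-receptor genes, and then divide.

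Estimated from the smallest steps of the FPKM values, library 1 of Fosl2 Tg was the shallowest of the 6 and library 3 the deepest (0.856 and 1.24 relative to control library 1), and very short RNA genes, whose FPKM is inflated, held 24.7% to 34.9% of the summed FPKM. On the principal component that held 75.9% of the variance of the other genes, the control libraries lay at -7.91, -15.6 and -21.8 and the Fosl2 Tg libraries at 30.1, 7.17 and 8.05. Fosl2 Tg library 1 thus stood apart from the rest of its group, and control library 1 lay nearest to Fosl2 Tg. Markers of CD4 T cells summed to 1113 to 1125 FPKM in control and 1253 to 1396 FPKM in Fosl2 Tg. Markers of CD8 T cells summed to 11.9 to 12.8 FPKM and 10.7 to 12.8 FPKM. Of the 2 present in the data, Cd8b1 alone reached 1 FPKM in any of the 6 libraries, and Cd8a did not. B cell markers summed to 1.06 to 1.98 FPKM in control and 0.578 to 0.974 FPKM in Fosl2 Tg, so every Fosl2 Tg library lay below every control. None of them reached 1 FPKM by itself in any of the 6 libraries. Natural killer and gamma delta T cell markers summed to at most 0.151 FPKM in any library, and red blood cell markers to at most 0.209 FPKM. Myeloid markers summed to 36.6 to 37.2 FPKM in control and 35.8 to 40.5 FPKM in Fosl2 Tg, 34.7 to 37.2 FPKM of it from Cst3, and Cd14 and Lyz1 were at 0. Of the 14 myeloid markers, 2 reached 1 FPKM in any of the 6 libraries. At low levels, Itgam (0.262 to 0.853 FPKM, q = 0.000503) and Fcgr3 (0.223 to 0.588 FPKM, q = 0.00429) were higher in Fosl2 Tg in the authors' own test. A list of stroma and epithelium markers summed to 15 to 21.8 FPKM in control and 24.4 to 38.2 FPKM in Fosl2 Tg, nearly all of it from Pecam1, which T cells also express (18.7, 13.8 and 12.8 FPKM against 33, 20.2 and 19.3 FPKM), and Epcam (2.99, 2.21 and 2.14 FPKM against 5.06, 4.56 and 5.01 FPKM). Col3a1 and Krt8 of that list were at 0 in all 6 libraries. In bulk RNA, fewer cells of a type and less RNA per cell cannot be told apart.

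Fosl2 itself, the targeted gene (chromosome 5, 32136472 to 32157839, build mm10), had 7.77, 7.44 and 6.15 FPKM in the control libraries and 30.9, 19.2 and 24.5 FPKM in Fosl2 Tg. All 3 Fosl2 Tg libraries lay above all controls. Fosl2 rose 3.49-fold (log2 change 1.65, SE 0.15, adjusted p = 0.000749), and a two-sided exact permutation test of 3 against 3 gave p = 0.1, the smallest p this design allows. The libraries labelled Fosl2 KO had 19.2, 17.8 and 17.1 FPKM, also above all controls.

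Across all genes, 2440 of the 10340 passed the threshold in limma (adjusted p under 0.05), which is 23.6% of them. Fosl2 Tg was higher for 882 genes (8.53%) and lower for 1558 (15.1%), and the median log2 change of all genes tested was -0.03. The counts given for each list below are to be read beside these shares. A call was counted as stable when the gene passed in the same direction in each of 9 fits that left out 1 library. By this rule 301 higher calls (2.91% of genes tested) and 534 lower calls (5.16%) were stable. Most calls were small, with a median size of 0.37 on the log2 scale, and 40 genes were higher and 73 lower by more than 1. The share of calls in the higher direction was 36.1%, and it depended on scaling. It was 46.5% with median-of-ratios scaling, 45.5% with quantile normalization and 55.8% after equalizing the summed FPKM without small RNA genes, and these scalings moved the median of all genes by 0.02 to 0.09. All 301 stable higher calls and 510 of the 534 stable lower calls also passed under these 3 scalings. Leaving out control replicate 2 gave 321 higher and 558 lower calls, and leaving out control replicate 3 gave 412 and 730. Without Fosl2 Tg library 1, which stood apart, 784 genes were higher and 1294 lower. With the 6 compared libraries alone, 287 genes were higher and 574 lower. The stable calls were not required to pass in that fit, in which 267 of the stable higher and 498 of the stable lower calls passed.

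Among the other AP-1 genes the JUN family, the main partners of FOS proteins, was lower in Fosl2 Tg. Jun had 3.83, 3.96 and 4.5 FPKM in the control libraries and 2.43, 2.35 and 2.28 FPKM in Fosl2 Tg. Junb had 107, 112 and 116 FPKM in the control libraries and 94.1, 91.2 and 87.8 FPKM in Fosl2 Tg. Jund had 120.2, 114 and 134 FPKM in the control libraries and 98.5, 102 and 90.7 FPKM in Fosl2 Tg. In all 3 genes every Fosl2 Tg library lay below every control. Groups did not overlap, in either direction, in 45.2% of all genes tested, a share that applies to each such statement below. Jun fell by 0.60 on the log2 scale (SE 0.08, adjusted p = 0.00234), Junb by 0.29 (adjusted p = 0.00521) and Jund by 0.34 (adjusted p = 0.0131), and the 3 calls were stable and held under the 3 scalings. Means are given from control to Fosl2 Tg with their SD (n = 3 per group). Of the FOS family, Fos (7.35 ± 0.347 to 6.08 ± 1.44 FPKM), Fosb (1.14 ± 0.159 to 0.895 ± 0.244 FPKM) and Fosl1 (1.73 ± 0.2 to 1.92 ± 0.344 FPKM) did not pass, nor did the JUN partner Batf (27.2 ± 3.33 to 23.2 ± 2.98 FPKM, adjusted p = 0.15). Of 18 AP-1 genes and relatives tested, 2 were higher, Fosl2 and Atf2, and 3 lower. Atf2, whose protein pairs with JUN, rose from 16 ± 0.382 to 17.6 ± 0.191 FPKM, a call lost in each of the 9 fits without 1 library (adjusted p up to 0.129). The 7 tested members of the MAF and BACH families held no call.

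**Figure D1:**
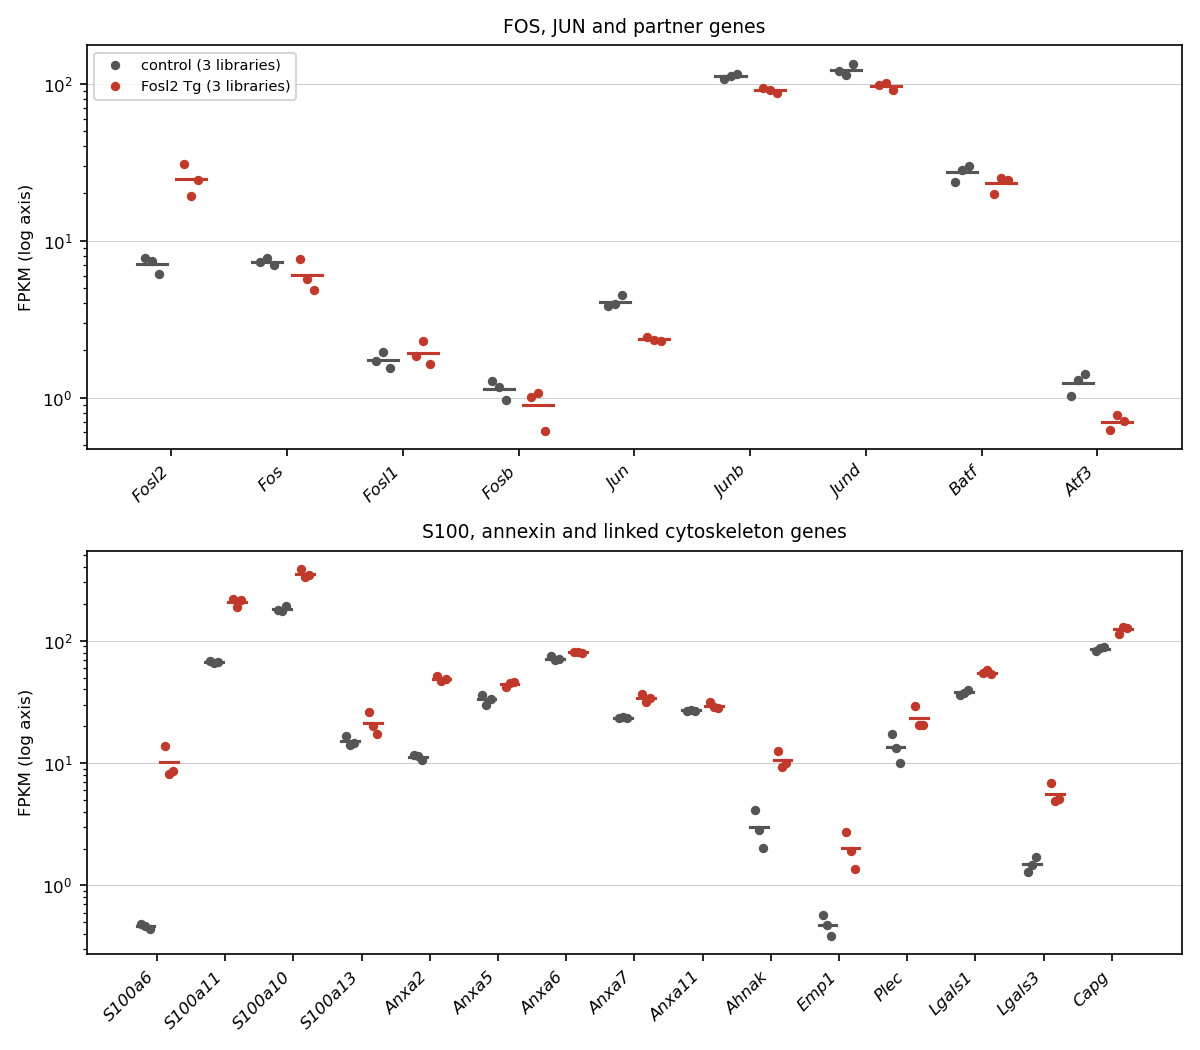
FPKM per library (log axis) of AP-1 genes (top) and of S100, annexin and linked cytoskeleton genes (bottom). Points are single libraries, bars the means of 3, control in grey and Fosl2 Tg in red. The Fosl2 Tg points lie above the controls for Fosl2, S100a6, S100a11 and Anxa2 and below them for Jun, Junb and Jund.

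The genes with the largest increases beside Fosl2 included a group of small calcium-binding proteins and their partners. S100 proteins are calcium sensors that bind target proteins as dimers, and annexins bind membrane phospholipids in a calcium-dependent way. S100A10 with annexin A2, and S100A11 with annexin A1, form known complexes at membranes, and AHNAK is a large scaffold bound by the S100A10 and annexin A2 complex. S100a6 (chromosome 3, 90612894 to 90614414) had 0.488, 0.461 and 0.44 FPKM in the control libraries and 13.9, 8.16 and 8.63 FPKM in Fosl2 Tg. It rose 22.1-fold from a control level under 1 FPKM (log2 change 2.90, SE 0.17, adjusted p = 8.17e-05). S100a11 (chromosome 3, 93520496 to 93526288) had 67.8, 65.5 and 67.3 FPKM in the control libraries and 221, 188 and 216 FPKM in Fosl2 Tg. It rose 3.12-fold (log2 change 1.62, SE 0.07, adjusted p = 1.91e-05). S100a10, at the same locus (chromosome 3, 93555117 to 93564645), had 179, 175 and 190.3 FPKM in the control libraries and 384, 329 and 342 FPKM in Fosl2 Tg. It rose 1.94-fold (log2 change 0.95, SE 0.07, adjusted p = 0.000202). Anxa2 (chromosome 9, 69453683 to 69491785) had 11.6, 11.4 and 10.6 FPKM in the control libraries and 51.4, 46.5 and 48.6 FPKM in Fosl2 Tg. It rose 4.35-fold (log2 change 2.03, SE 0.08, adjusted p = 1.91e-05). Ahnak rose from 2.99 ± 1.06 to 10.7 ± 1.76 FPKM (log2 change 1.57, SE 0.18, adjusted p = 0.00141). In these 5 genes no control library reached the lowest Fosl2 Tg library. Their calls were stable.

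Smaller stable increases were seen for Anxa7 (23.5 ± 0.201 to 33.8 ± 2.54 FPKM, log2 change 0.50, adjusted p = 0.00134) and for Anxa5 (33.1 ± 2.94 to 44.6 ± 2.27 FPKM, log2 change 0.42, adjusted p = 0.00709), a phosphatidylserine-binding annexin. In all, 8 of the 11 S100 and annexin genes tested were higher and none lower, 6 of the calls were stable, and the list's median log2 change was 0.45 against -0.03 for all genes. The other 2 higher calls were Anxa6, lost without control 2 or 3 (adjusted p up to 0.0857), and S100a13, lost without control 2 or 3 or Fosl2 Tg 2 or library 1, 2 or 3 labelled Fosl2 KO (adjusted p up to 0.121). Anxa4 (1.76 to 1.48 FPKM, means), Anxa11 (26.9 to 29.5 FPKM) and S100pbp (18.2 to 17.9 FPKM) did not pass, and 9 further members were below the filter, S100a4 and Anxa1 among them.

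Cytoskeleton and galectin genes that differ between memory and naive T cells, in a list chosen with earlier results of these data known, rose in part. Of 21 tested, 10 were higher, 5 of them stable, and 3 lower, none stable. Lgals1, the beta-galactoside-binding galectin 1, had 36, 37.6 and 39.8 FPKM in the control libraries and 54, 57.2 and 53.3 FPKM in Fosl2 Tg and rose (log2 change 0.53, SE 0.06, adjusted p = 0.00123). Capg, which caps actin filaments, rose from 86.2 ± 3.5 to 123 ± 8.78 FPKM (log2 change 0.51, adjusted p = 0.00181). The actin crosslinker Actn1 rose from 90.5 ± 5.2 to 133 ± 19.8 FPKM (log2 change 0.54, adjusted p = 0.00989). The membrane protein Emp1 rose from 0.478 ± 0.0957 to 2.01 ± 0.689 FPKM (log2 change 1.00, adjusted p = 0.00421). The higher calls of Lgals3, Plec, Flna, Tln1 and Lgals8 were not stable. By library left out, the higher count was 5 without control 2 or 3 and 6 without Fosl2 Tg 1 and the lower count ranged from 0 (without control 2, control 3 or library 3 labelled Fosl2 KO) to 3. The intermediate filament gene Vim (23.7 ± 1.84 to 17.6 ± 3.31 FPKM) did not pass.

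The promoters of 3 of these genes are shown because the letters of the AP-1 site occur in them. TGANTCA was searched on both strands in the 250 bases before the start of the RefSeq transcript (RefSeq, GRCm38.p6, written 5′ to 3′ on the gene's strand), and matches are in capitals. The regions are chr9:69453433-69453682 on the plus strand for Anxa2, chr3:93520246-93520495 on the plus strand for S100a11 and chr6:135362681-135362930 on the plus strand for Emp1.
Anxa2: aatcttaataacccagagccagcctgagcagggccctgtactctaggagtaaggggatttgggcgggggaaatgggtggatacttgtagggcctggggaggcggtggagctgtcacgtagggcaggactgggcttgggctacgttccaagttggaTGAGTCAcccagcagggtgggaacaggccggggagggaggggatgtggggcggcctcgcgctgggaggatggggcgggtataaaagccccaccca
S100a11: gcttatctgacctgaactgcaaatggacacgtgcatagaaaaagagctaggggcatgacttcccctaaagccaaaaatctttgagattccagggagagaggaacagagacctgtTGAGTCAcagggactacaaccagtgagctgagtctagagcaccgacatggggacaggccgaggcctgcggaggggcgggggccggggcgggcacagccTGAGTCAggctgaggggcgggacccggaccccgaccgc
Emp1: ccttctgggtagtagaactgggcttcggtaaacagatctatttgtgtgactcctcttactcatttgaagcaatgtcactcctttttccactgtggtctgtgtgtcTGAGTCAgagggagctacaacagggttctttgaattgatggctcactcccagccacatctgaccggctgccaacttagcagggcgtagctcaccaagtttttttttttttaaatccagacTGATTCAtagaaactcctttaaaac
Anxa2 held 1 match, S100a11 2 and Emp1 2. The promoters of S100a6 and Ahnak held none. Fosl2 itself and Prss12, Akr1c18 and Padi2, which are among the largest increases, also held none. Of the 28 most increased genes with a promoter sequence, chosen by the largest log2 change among stable calls, 7 held a match (Anxa2, S100a11, Emp1, Gzmb, Oas3, Tiam1 and Pyhin1), and of the 22 most decreased 2 did (Ifitm3 and Slamf7). Among all 8141 tested genes with a promoter sequence, 3.75% held a match.

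Genes of mitosis fell nearly as a whole. Of 47 tested, 44 were lower in Fosl2 Tg, none was higher, and 39 calls were stable, with a median log2 change of -0.92 against -0.03 for all genes. The median member lay at -1.10, -0.89 and -0.71 in the Fosl2 Tg libraries 1 to 3, relative to the control mean. All 13 kinases and cyclins were lower. Among them, Aurkb, the kinase of the chromosomal passenger complex, had 18.9, 24.1 and 25.7 FPKM in the control libraries and 7.46, 9.5 and 10.9 FPKM in Fosl2 Tg. Every Fosl2 Tg library lay below every control (log2 change -1.22, SE 0.16, adjusted p = 0.00255). Plk1, a kinase of mitotic entry and spindle assembly, fell from 6.49 ± 1.22 to 2.79 ± 0.426 FPKM (log2 change -0.97, adjusted p = 0.00321). The S and G2 phase cyclin Ccna2 fell from 35.8 ± 5.8 to 15.7 ± 3.27 FPKM (log2 change -1.14, adjusted p = 0.00375). Birc5 (survivin), another subunit of the passenger complex, had 30.1, 36.3 and 44.9 FPKM in the control libraries and 10.6, 13.2 and 17 FPKM in Fosl2 Tg, which is 0.368-fold the control mean (log2 change -1.38, SE 0.20, adjusted p = 0.00314).

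Of the 18 spindle and kinetochore genes 17 were lower. The spindle motor Kif11 fell from 18.4 ± 2.34 to 7.46 ± 1.49 FPKM (log2 change -1.20, adjusted p = 0.00296). The central spindle motor Kif23 fell from 6.54 ± 0.724 to 2.99 ± 0.438 FPKM (log2 change -0.92, adjusted p = 0.00154). The chromosome motor Kif4 fell from 5.49 ± 0.654 to 2.2 ± 0.467 FPKM (log2 change -1.02, adjusted p = 0.00171). Prc1, which bundles the microtubules of the central spindle, fell from 5.75 ± 0.51 to 2.57 ± 0.238 FPKM (log2 change -0.92, adjusted p = 0.00187). Of the 16 genes of mitotic exit and chromosome condensation 14 were lower. Cdc20, an activator of the anaphase-promoting complex, fell from 13.3 ± 1.78 to 7.09 ± 0.855 FPKM (log2 change -0.82, adjusted p = 0.00194). Ube2c, a ubiquitin-conjugating enzyme of that complex, fell from 13.1 ± 3.15 to 4.52 ± 0.981 FPKM (log2 change -1.35, adjusted p = 0.00505). The transcription factor Foxm1, which drives genes of G2 and mitosis, fell from 8.44 ± 0.731 to 3.95 ± 0.455 FPKM (log2 change -0.93, adjusted p = 0.00181). Mybl2, which acts with it, fell from 14.3 ± 1.62 to 6.75 ± 1.21 FPKM (log2 change -0.99, adjusted p = 0.00255). Mki67, a marker of cycling cells, fell from 19.2 ± 1.04 to 8.88 ± 1.79 FPKM (log2 change -1.04, adjusted p = 0.00298). The 3 members without a call were Cenpa (10.8 ± 0.979 to 9.83 ± 0.519 FPKM), Pttg1 (15.8 ± 0.879 to 18.5 ± 2.05 FPKM) and Smc4 (110.3 ± 5.04 to 105 ± 10.5 FPKM).

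Promoters of 3 mitotic genes are shown with CCAAT, the letters of the NF-Y site, and TTTGAA, those of the cell cycle homology region (CHR), in capitals on either strand. Both elements are known parts of mitotic promoters. The regions, in the same RefSeq build, are chr4:118437344-118437593 on the minus strand for Cdc20, chr9:70421555-70421804 on the minus strand for the mitotic cyclin Ccnb2 and chr11:99024190-99024439 on the minus strand for the DNA topoisomerase Top2a.
Cdc20: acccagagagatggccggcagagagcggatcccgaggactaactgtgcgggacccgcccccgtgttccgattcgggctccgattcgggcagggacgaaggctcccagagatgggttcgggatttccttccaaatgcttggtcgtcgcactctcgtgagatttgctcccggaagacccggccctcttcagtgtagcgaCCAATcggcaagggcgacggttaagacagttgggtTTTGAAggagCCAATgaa
Ccnb2: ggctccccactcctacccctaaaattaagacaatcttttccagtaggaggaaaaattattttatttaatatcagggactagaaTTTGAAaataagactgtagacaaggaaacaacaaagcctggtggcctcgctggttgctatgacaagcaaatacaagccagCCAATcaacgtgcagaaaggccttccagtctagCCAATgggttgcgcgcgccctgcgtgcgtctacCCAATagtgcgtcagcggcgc
Top2a: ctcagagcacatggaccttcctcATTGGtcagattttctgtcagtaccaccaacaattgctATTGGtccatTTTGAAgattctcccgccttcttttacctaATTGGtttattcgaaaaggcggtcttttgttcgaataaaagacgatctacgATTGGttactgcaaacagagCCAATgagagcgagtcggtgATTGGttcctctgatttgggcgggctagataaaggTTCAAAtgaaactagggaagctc
Cdc20 held 2 CCAAT matches and 1 TTTGAA match, Ccnb2 3 and 1, and Top2a 6 and 2. Ccnb2 fell from 2.7 ± 0.444 to 1.29 ± 0.216 FPKM (log2 change -0.69, adjusted p = 0.00859). Top2a fell from 59.6 ± 5.98 to 31.5 ± 7.51 FPKM (log2 change -0.92, adjusted p = 0.0103).

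Genes of DNA replication were lower too, but most of these calls were not stable. Of 53 tested, 38 were lower and none higher (median log2 change -0.52), 6 calls were stable, and the lower count was 6 without control 2, 8 without control 3 and 24 without library 3 labelled Fosl2 KO. The groups did not overlap in 50 of the 53, all with Fosl2 Tg lower, while 45.2% of all genes tested had groups that did not overlap in either direction. The median member lay at -0.83, -0.39 and -0.31 in the 3 Fosl2 Tg libraries, so library 1 was the lowest. Mcm10, which acts in the start of replication, had 23.3, 27.9 and 27.9 FPKM in the control libraries and 9.83, 13.6 and 15.5 FPKM in Fosl2 Tg (log2 change -0.99, SE 0.15, adjusted p = 0.00477). Cdc45, part of the replicative helicase, fell from 43.8 ± 5.13 to 23.2 ± 5.5 FPKM (log2 change -0.91, adjusted p = 0.0102). The histone chaperone subunit Chaf1a fell from 41.1 ± 4.38 to 23.6 ± 5.38 FPKM (log2 change -0.80, adjusted p = 0.0119). Of 8 genes of nucleotide synthesis 7 were lower, 2 of them stable. Rrm2, the small subunit of ribonucleotide reductase, fell from 95.4 ± 13.7 to 44.8 ± 11.2 FPKM (log2 change -1.09, adjusted p = 0.00918). The thymidylate synthase Tyms fell from 16.5 ± 1.97 to 8.94 ± 1.86 FPKM (log2 change -0.83, adjusted p = 0.0081). The sliding clamp Pcna fell from 586 ± 69.9 to 398 ± 53.1 FPKM (log2 change -0.56, adjusted p = 0.0161), a call lost without control 2 or 3 (adjusted p up to 0.0553). Equalizing the summed FPKM without small RNA genes left 32 of the 38 calls.

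Replication-dependent histones, which are made in S phase and whose messages mostly lack a poly-A tail, fell as well. Of 30 tested in these poly-A libraries, 23 were lower, 15 of them stable, and none higher (median log2 change -0.82). Over all 37 histone genes tested 26 were lower, and the lower count was 17 without control 2. Hist1h2ai had 39.4, 39.2 and 43.4 FPKM in the control libraries and 17.6, 24.9 and 23.5 FPKM in Fosl2 Tg (log2 change -0.87, adjusted p = 0.00536). Hist1h4k had 31.5, 38.9 and 40.6 FPKM in the control libraries and 19.6, 19.3 and 20.3 FPKM in Fosl2 Tg (log2 change -0.86, adjusted p = 0.00187). In both genes the groups did not overlap, but copies of one histone are nearly identical and the way their reads were shared out is not given, so single copies are uncertain. Of the 7 tested histone variants 3 were lower, among them H2afz (486 ± 64 to 300.1 ± 42.9 FPKM, log2 change -0.70, adjusted p = 0.0102) and H2afx (41.9 ± 2.94 to 28.7 ± 1.76 FPKM, log2 change -0.53, adjusted p = 0.00255), both stable, while H3f3a (395 ± 35.5 to 387 ± 23.7 FPKM) and H3f3b (239 ± 13.8 to 223 ± 7.63 FPKM), made throughout the cycle, did not pass.

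Upstream, 14 of 25 genes of cell cycle control were lower, 5 of them stable, and 1 was higher, Rbl2, a call lost without control 2 or 3 or Fosl2 Tg 1 or 3 or library 1, 2 or 3 labelled Fosl2 KO (adjusted p up to 0.112). E2f8 had 8.07, 9.78 and 9.61 FPKM in the control libraries and 3.16, 4.09 and 4.58 FPKM in Fosl2 Tg (log2 change -1.04, SE 0.13, adjusted p = 0.0022). This gene, a repressor within the E2F family, and E2f2 (9.75 ± 0.844 to 5.67 ± 0.444 FPKM, log2 change -0.69, adjusted p = 0.00318) had stable calls, and so did the G1 cyclin Ccne2 (5.14 ± 0.451 to 2.24 ± 0.409 FPKM, log2 change -0.93, adjusted p = 0.00327), the phosphatase Cdc25a (29.9 ± 2.04 to 19.3 ± 3.24 FPKM, log2 change -0.62, adjusted p = 0.00864) and the CDK inhibitor Cdkn2c (3.76 ± 0.736 to 1.91 ± 0.258 FPKM, log2 change -0.70, adjusted p = 0.0058). The activator E2f1 fell from 25.4 ± 2.74 to 15.3 ± 4.01 FPKM (log2 change -0.72, adjusted p = 0.0205), a call lost without control 2 or 3 (adjusted p up to 0.0746). Over the fits without 1 library, the lower count was 5 without control 2 and 6 without control 3. Cyclin D2 (Ccnd2, 184 ± 13.9 to 182 ± 22.3 FPKM) did not pass, and the inhibitor p27 (Cdkn1b) had 19.4, 14.5 and 14.5 FPKM in the control libraries and 44.2, 20.3 and 21 FPKM in Fosl2 Tg (adjusted p = 0.0824), with library 1 of Fosl2 Tg the highest.

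**Figure D2:**
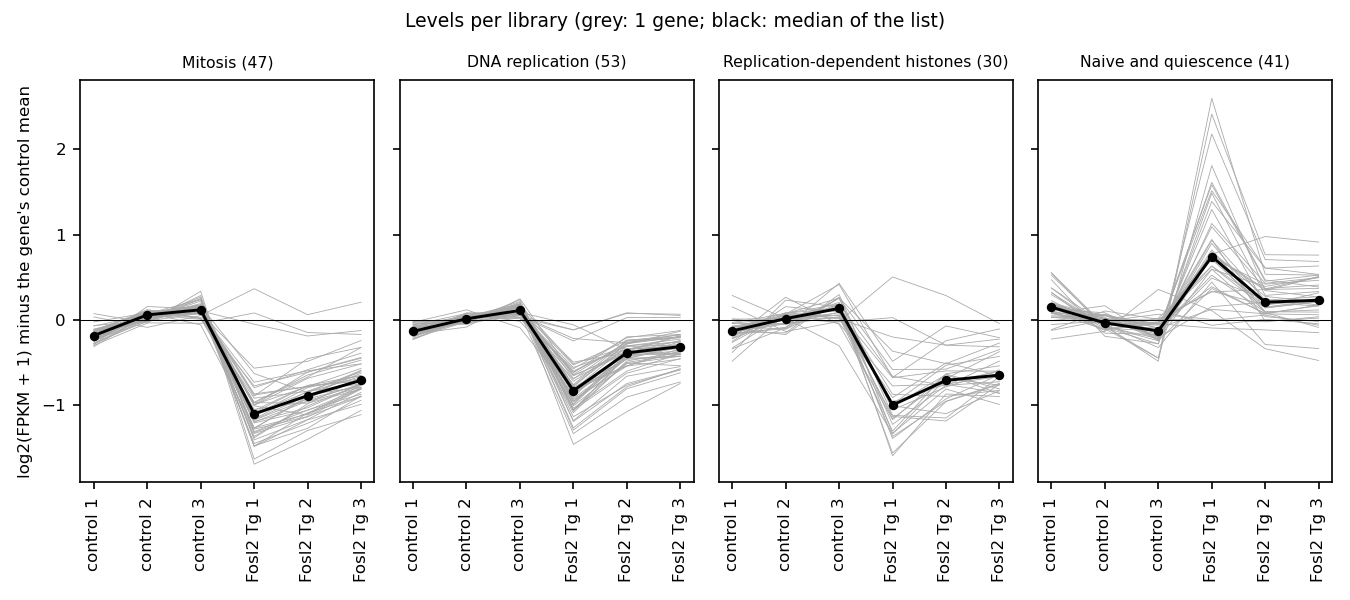
Difference of log2(FPKM + 1) from the gene's control mean in each of the 6 libraries for 4 lists (grey lines, 1 gene; black, the median of the list). The medians of the mitosis list are -1.10, -0.89 and -0.71 in Fosl2 Tg, those of the DNA replication list -0.83, -0.39 and -0.31, and those of the naive and quiescence list 0.74, 0.21 and 0.23.

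Across promoters, the AP-1 letters TGANTCA occurred in 3.75% of the 8141 tested genes that had a RefSeq promoter sequence. They occurred in 7.15% of the 727 higher and 3.47% of the 1239 lower genes, and in 9.88% of the 253 stable higher and 4.31% of the 418 stable lower genes. None of the 40 mitosis promoters held them. CCAAT occurred in 37.8% of all promoters, 34.5% of higher and 41.5% of lower genes, and in 72.5% of the mitosis list. TTTGAA occurred in 10.6% of all and 30% of mitosis promoters, and in 12.1% and 70% with the 50 bases after the start added. GCGGGAA, the letters of an E2F site, occurred in 7.53% of all promoters and 22.7% of the 44 promoters of the DNA replication list. With the 50 bases after the start added, these shares were 9.27% and 38.6%. The palindrome TGACGTCA of the cyclic AMP response element, bound by ATF and CREB proteins, occurred in 3.06% of all, 1.65% of higher and 2.83% of lower genes. Each was searched on both strands, none of these motifs contains another, and a match is a description and not a binding site.

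**Figure D3:**
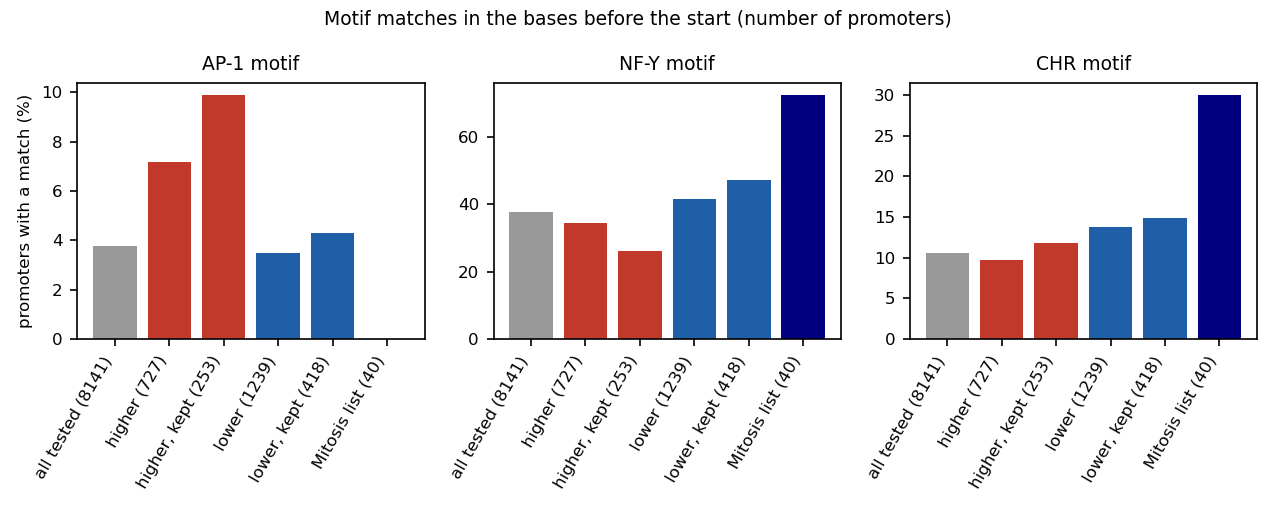
Percent of promoters (250 bases before the start) with at least 1 match to the AP-1, NF-Y or CHR letters in all genes tested, in higher and lower genes, in those with stable calls ("kept") and in the mitosis list; promoter numbers are in brackets. The AP-1 share is 3.75% of all, 7.15% of higher and 9.88% of stable higher genes, and the NF-Y share is 72.5% of the mitosis list.

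Chemokine ligands, which recruit other immune cells, were lower in Fosl2 Tg in all 4 genes tested. Ccl3 had 5.94, 8.29 and 10 FPKM in the control libraries and 3.19, 2.54 and 2.96 FPKM in Fosl2 Tg. Ccl4 had 40.4, 55 and 59.4 FPKM in the control libraries and 20.8, 25.3 and 21.6 FPKM in Fosl2 Tg. Xcl1 had 11.4, 14.4 and 18.4 FPKM in the control libraries and 7.14, 6.69 and 4.82 FPKM in Fosl2 Tg. In all 3 the groups did not overlap, and the log2 changes were -1.20 (adjusted p = 0.00299), -1.15 (adjusted p = 0.00609) and -1.11 (adjusted p = 0.0054). Ccl1, with 0.991, 0.637 and 1.17 FPKM against 0.292, 0 and 0.0497 FPKM, was the weakest of the 4 in expression (log2 change -0.79, adjusted p = 0.00902). Their 4 calls were stable, and 8 further ligands, Ccl5 among them, were below the filter.

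Chemokine receptors split. Ccr8, the receptor of CCL1, had 6.92, 7.03 and 6.58 FPKM in the control libraries and 1.73, 2.09 and 1.25 FPKM in Fosl2 Tg. It fell to 0.247-fold the control mean with no overlap of the groups (log2 change -1.56, SE 0.11, adjusted p = 0.000164). Cxcr6 fell from 2.12 ± 0.311 to 0.959 ± 0.26 FPKM (log2 change -0.68, adjusted p = 0.00538). In contrast, Ccr4 rose from 10.3 ± 0.618 to 16.1 ± 1.81 FPKM (log2 change 0.60, adjusted p = 0.0024). Ccr7, the receptor that guides T cells into lymph nodes, had 321, 322 and 326 FPKM in the control libraries and 406, 414 and 418 FPKM in Fosl2 Tg (log2 change 0.35, SE 0.05, adjusted p = 0.00255). All 4 calls were stable. Cxcr4 (3.27 ± 0.816 to 6.44 ± 4.75 FPKM, adjusted p = 0.197) did not pass. Of 7 other migration receptors 3 were higher and stable: the oxysterol receptor Gpr183 (19.1 ± 1.03 to 27 ± 1.96 FPKM, log2 change 0.48, adjusted p = 0.00248), the prostaglandin E2 receptor Ptger2 (7.76 ± 0.913 to 12.5 ± 2.56 FPKM, log2 change 0.61, adjusted p = 0.0171) and Gpr132 (24.7 ± 1.6 to 37.1 ± 6.71 FPKM, log2 change 0.56, adjusted p = 0.0117). A second prostaglandin E2 receptor, Ptger4, fell from 23.7 ± 0.254 to 18.8 ± 1.02 FPKM (log2 change -0.32, adjusted p = 0.00585). S1pr1, the receptor for exit from lymph nodes, had 21.2, 13.6 and 10.3 FPKM in the control libraries and 81.2, 25.2 and 25.1 FPKM in Fosl2 Tg. All of Fosl2 Tg lay above control, library 1 far above the other 2, and the gene did not pass (adjusted p = 0.0582).

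Of 31 cytokine genes only 9 passed the filter, and Il4, Il17a, Il21 and Ifng were among those below it. Il2, the main T cell growth factor of this stage, had 138, 172 and 169 FPKM in the control libraries and 48.2, 77 and 62.1 FPKM in Fosl2 Tg. It fell to 0.391-fold the control mean (log2 change -1.36, SE 0.16, adjusted p = 0.00145), a stable call. Tnf (81.2 ± 6.43 to 84.8 ± 4.38 FPKM, adjusted p = 0.599) and Lta (72.6 ± 3.77 to 67.3 ± 11.2 FPKM) did not pass. The other calls of the list, Il16 and Ltb higher and Lif and Mif lower, were not stable, and the lower count was 1 without control 2 or 3. Of 20 cytokine receptors tested, 6 were higher and 3 lower (8.53% and 15.1% over all genes). Il2ra fell from 97.5 ± 4 to 72.1 ± 12.7 FPKM (log2 change -0.45, adjusted p = 0.0292), a call lost without control 1, 2 or 3 or library 1, 2 or 3 labelled Fosl2 KO (adjusted p up to 0.0843). Il21r, which passed in all 9 fits and under 2 of 3 scalings, fell from 48.3 ± 0.964 to 38.6 ± 2.74 FPKM (log2 change -0.32, adjusted p = 0.0106). Il7r had 16.6, 10.5 and 7.59 FPKM in the control libraries and 71.8, 16.4 and 16.3 FPKM in Fosl2 Tg and did not pass (adjusted p = 0.113). Of 6 receptors for interferons and IL-10, 4 were higher (Ifnar1, Ifnar2, Ifngr2 and Il10ra) and 0 calls were stable. Il10ra rose from 2.53 ± 0.675 to 5.29 ± 1.61 FPKM (log2 change 0.82, adjusted p = 0.0172), a call lost without control 2 or 3 (adjusted p up to 0.0677). Leaving out libraries, the higher count ranged from 0 (without control 2) to 5 (without control 1 or Fosl2 Tg 2) and the lower count was 1 without control 2 or 3.

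Ligands and receptors of the TNF superfamily, many of which act as co-stimulators, moved in both directions. Of 26 tested, 7 were higher and 10 lower, and 4 and 6 of these calls were stable (the higher count was 4 without control 3 and the lower count was 6 without control 2). Among the ligands, Tnfsf4 (OX40 ligand) had 4.72, 4.73 and 4.16 FPKM in the control libraries and 1.46, 2.48 and 2.01 FPKM in Fosl2 Tg. Tnfsf9 (4-1BB ligand) had 7.33, 6.87 and 7.54 FPKM in the control libraries and 2.9, 4.03 and 3.84 FPKM in Fosl2 Tg. Both fell with no overlap (-0.90 and -0.85 on the log2 scale, adjusted p = 0.00497 and adjusted p = 0.00141), as did Tnfsf14 (LIGHT), from 21.8 ± 1.61 to 12.1 ± 1.95 FPKM (log2 change -0.81, adjusted p = 0.0025). Tnfsf11 (RANK ligand) fell from 58.4 ± 8.94 to 30.1 ± 8.02 FPKM (log2 change -0.96, adjusted p = 0.0137), a call lost without control 2 or 3 (adjusted p up to 0.057). Tnfsf8 (CD30 ligand) rose from 28.5 ± 1.94 to 48.1 ± 9.82 FPKM (log2 change 0.72, adjusted p = 0.00873). Among the receptors, Tnfrsf4 (OX40) had 242, 284 and 286 FPKM in the control libraries and 110, 177 and 156 FPKM in Fosl2 Tg. Tnfrsf18 (GITR) had 138, 145 and 148 FPKM in the control libraries and 74.8, 97.6 and 83.5 FPKM in Fosl2 Tg. Both fell without overlap of the groups, by 0.90 (adjusted p = 0.00741) and 0.76 (adjusted p = 0.00146) on the log2 scale. Tnfrsf14 (HVEM), a receptor of LIGHT, had 13.6, 14.2 and 8.93 FPKM in the control libraries and 33.4, 24.4 and 25.8 FPKM in Fosl2 Tg. It rose 2.28-fold (log2 change 1.14, SE 0.17, adjusted p = 0.00385). The decoy receptors Tnfrsf22 (5.46 ± 0.399 to 7.89 ± 0.634 FPKM, log2 change 0.46, adjusted p = 0.00394) and Tnfrsf23 (1.44 ± 0.25 to 3.39 ± 0.426 FPKM, log2 change 0.85, adjusted p = 0.00148) rose as well. Tnfrsf9 (4-1BB) fell from 71 ± 1.1 to 57.7 ± 7.67 FPKM, a call that passed under none of the 3 scalings and was lost without control 1, 2 or 3 or Fosl2 Tg 2 or 3 or library 1, 2 or 3 labelled Fosl2 KO (adjusted p up to 0.106).

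Of 22 co-stimulatory and co-inhibitory receptors and ligands, which overlap the TNF list, 4 were higher (2 stable) and 8 lower (5 stable), and the higher count was 2 without control 3 or library 3 labelled Fosl2 KO and the lower count was 5 without control 2. Cd83, an activation-induced surface protein, had 6.35, 7 and 7.9 FPKM in the control libraries and 0.75, 0.999 and 0.966 FPKM in Fosl2 Tg. It had the largest decrease on the log2 scale among the stable calls ranked for naming, to 0.128-fold the control mean (log2 change -2.08, SE 0.11, adjusted p = 4.35e-05). Ctla4, which competes with CD28 for its ligands, had 56.9, 57.6 and 60.5 FPKM in the control libraries and 19.1, 33.7 and 28.2 FPKM in Fosl2 Tg. Cd28 had 157, 149.9 and 148 FPKM in the control libraries and 209, 216 and 231 FPKM in Fosl2 Tg. They moved in opposite directions, Ctla4 down (log2 change -1.12, SE 0.18, adjusted p = 0.0056) and Cd28 up (log2 change 0.52, SE 0.05, adjusted p = 0.00107), and in neither did the groups overlap. Cd160, another receptor of HVEM, fell from 4.24 ± 0.233 to 2.03 ± 0.349 FPKM (log2 change -0.79, adjusted p = 0.00177). Lag3 fell from 33.7 ± 2.25 to 21.9 ± 4.38 FPKM (log2 change -0.61, adjusted p = 0.0128), a call lost without control 2 (adjusted p up to 0.0564). Pdcd1 (70.5 ± 6.35 to 61.9 ± 6.83 FPKM), Btla (112 ± 4.19 to 87.3 ± 18.5 FPKM), Icos (54.3 ± 1.53 to 54.9 ± 7.5 FPKM) and Cd40lg (80 ± 5.43 to 89.9 ± 3.59 FPKM) did not pass.

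Among 12 genes listed as activation markers 6 were lower, 4 of them stable, and 2 higher, 1 of them stable. The stable lower calls include Lad1, which was listed from these same data and so is no evidence about activation markers. Cd69, an early marker, had 141, 148 and 144 FPKM in the control libraries and 170.2, 176 and 168 FPKM in Fosl2 Tg and rose (log2 change 0.25, adjusted p = 0.00945). Lad1, an anchoring filament gene used here as an activation marker from earlier results of these data, had 67.9, 74.4 and 70.1 FPKM in the control libraries and 21.7, 27.8 and 20.5 FPKM in Fosl2 Tg and fell (log2 change -1.57, SE 0.10, adjusted p = 0.000141). Cd44 fell from 19.4 ± 0.849 to 13.4 ± 1.22 FPKM (log2 change -0.51, adjusted p = 0.00688). Tfrc, the transferrin receptor, had 170.2, 182 and 182 FPKM in the control libraries and 101, 155 and 157 FPKM in Fosl2 Tg and did not pass (adjusted p = 0.0897).

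**Figure D4:**
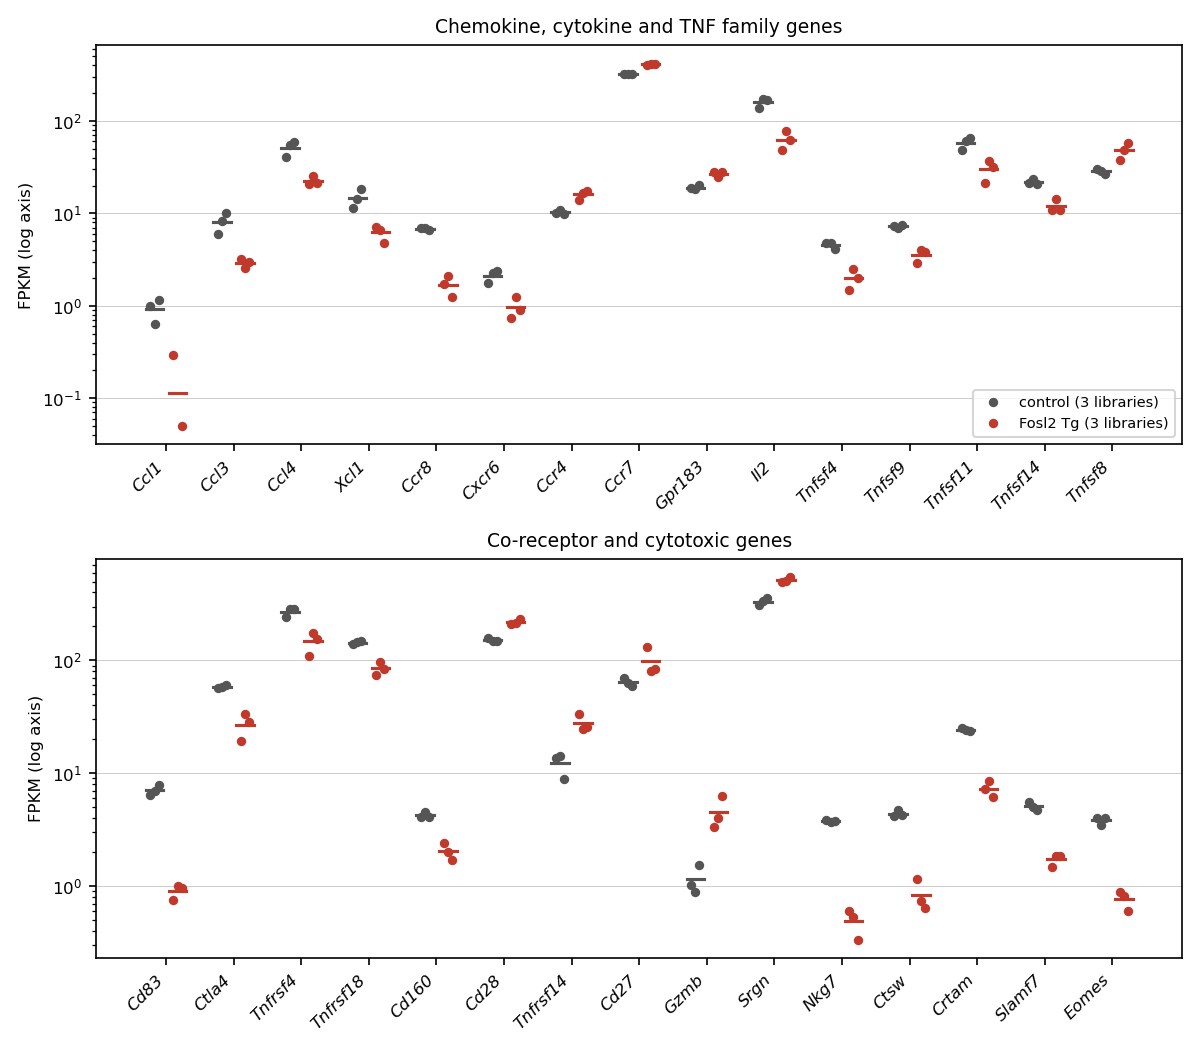
FPKM per library (log axis) of chemokine, cytokine and TNF family genes (top) and of co-receptor and cytotoxic genes (bottom). Points are single libraries and bars the means of 3, control in grey and Fosl2 Tg in red; 1 Fosl2 Tg library at 0 for Ccl1 is not drawn. Fosl2 Tg lies below control for the 4 chemokine ligands, Il2 and Ctla4 and above it for Ccr4, Ccr7, Cd28 and Gzmb.

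Genes of cytotoxic lymphocytes also split, most of them at low levels. Eomes, a T-box factor of cytotoxic and memory cells, had 4, 3.48 and 4.04 FPKM in the control libraries and 0.894, 0.817 and 0.607 FPKM in Fosl2 Tg. It fell to 0.201-fold the control mean (log2 change -1.45, SE 0.11, adjusted p = 0.000278). Nkg7, a granule membrane protein, had 3.87, 3.73 and 3.78 FPKM in the control libraries and 0.6, 0.537 and 0.334 FPKM in Fosl2 Tg (log2 change -1.69, SE 0.07, adjusted p = 1.91e-05). The cathepsin Ctsw had 4.19, 4.69 and 4.23 FPKM in the control libraries and 1.15, 0.735 and 0.636 FPKM in Fosl2 Tg (log2 change -1.55, SE 0.13, adjusted p = 0.000373). In these 3 genes and in the surface receptors Crtam (24.3 ± 0.651 to 7.31 ± 1.18 FPKM, log2 change -1.62, adjusted p = 0.000163) and Slamf7 (5.11 ± 0.427 to 1.72 ± 0.217 FPKM, log2 change -1.17, adjusted p = 0.000189) the groups did not overlap. The serine protease granzyme B (Gzmb) went the other way, with 1.02, 0.888 and 1.55 FPKM in the control libraries and 3.34, 3.98 and 6.22 FPKM in Fosl2 Tg (log2 change 1.34, SE 0.19, adjusted p = 0.00318). So did Srgn, the granule proteoglycan serglycin, at a far higher level (333 ± 22.2 to 518 ± 24.9 FPKM, log2 change 0.64, adjusted p = 0.00105). Of 14 tested, 5 were lower and 3 higher, and 5 and 2 calls were stable. Prf1 (0.513 ± 0.0985 to 0.619 ± 0.278 FPKM), Fasl (9.34 ± 0.498 to 9.03 ± 0.935 FPKM) and Runx3 (11.3 ± 0.0276 to 10.7 ± 0.498 FPKM) did not pass, and Tbx21, Prdm1 and Gzma were below the filter.

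Among 16 factors of helper T cell subsets, 5 were lower and 3 higher (15.1% and 8.53% over all genes), with 3 and 1 stable calls. The higher count was 1 without control 3 and the lower count was 3 without control 2 or Fosl2 Tg 3. Foxp3, the factor of regulatory T cells, had 3.03, 2.27 and 2.34 FPKM in the control libraries and 0.417, 0.54 and 0.215 FPKM in Fosl2 Tg, with no overlap (log2 change -1.35, SE 0.11, adjusted p = 0.000341). Pou2af1, a co-activator of octamer-binding factors, fell from 32.7 ± 1.89 to 25 ± 1.45 FPKM (log2 change -0.37, adjusted p = 0.00477). The repressor Gfi1, which promotes Th2 cell growth, rose from 12.6 ± 0.32 to 18.1 ± 1.35 FPKM (log2 change 0.49, adjusted p = 0.00248). Gata3 (Th2, 4.8 ± 0.28 to 5.74 ± 0.447 FPKM, log2 change 0.21, adjusted p = 0.0486) was higher too, a call lost without control 2 or 3 or Fosl2 Tg 1 or 2 or library 1, 2 or 3 labelled Fosl2 KO (adjusted p up to 0.138). Irf4 had 156, 179 and 162 FPKM in the control libraries and 198, 256 and 269 FPKM in Fosl2 Tg (log2 change 0.52, adjusted p = 0.0165), a call lost without control 3 (adjusted p up to 0.0564). Stat4 (20.9 ± 1.41 to 19.3 ± 1.44 FPKM) and Bcl6 (4.41 ± 0.612 to 5.14 ± 2.02 FPKM) did not pass. Of 18 genes often linked with regulatory T cells, 8 were lower and 4 higher, with 4 stable calls each way. The lower ones included Foxp3, Ctla4, Tnfrsf4 and Tnfrsf18, and the higher ones Nt5e (CD73, 2.72 ± 0.468 to 5.75 ± 0.561 FPKM, log2 change 0.86, adjusted p = 0.00206), Folr4 (folate receptor 4, 75.1 ± 2.72 to 99.9 ± 6.21 FPKM, log2 change 0.41, adjusted p = 0.0102), Rgs16 (30.7 ± 2.43 to 50.6 ± 5.05 FPKM, log2 change 0.70, adjusted p = 0.00187) and Capg. In this list, the lower count ranged from 4 (without control 2) to 7 (without Fosl2 Tg 1).

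Of 46 genes of T cell receptor signalling, from receptor chains to kinases, adaptors and negative regulators, 15 were higher in Fosl2 Tg and 1 lower (median log2 change 0.13). Of the higher calls 6 were stable, and the higher count was 6 without control 2 and 9 without control 3. Ptpn22, a phosphatase that dampens receptor signalling, had 38, 39 and 33 FPKM in the control libraries and 74.4, 60.2 and 62.8 FPKM in Fosl2 Tg (log2 change 0.82, SE 0.09, adjusted p = 0.00137). Malt1, the paracaspase of the pathway to NF-kB, had 30.2, 30.3 and 27.8 FPKM in the control libraries and 40.9, 43.3 and 45.1 FPKM in Fosl2 Tg (log2 change 0.54, SE 0.05, adjusted p = 0.000862). Other stable increases included the adhesion receptor Cd2 (84 ± 2.17 to 121 ± 8.93 FPKM, log2 change 0.52, adjusted p = 0.00134), Ubash3b (30.1 ± 2.49 to 41.4 ± 1.59 FPKM, log2 change 0.45, adjusted p = 0.00327), a phosphatase that restrains the receptor, and Ptprc (CD45, 339 ± 19.4 to 418 ± 11 FPKM, log2 change 0.30, adjusted p = 0.00972). The phosphatase Ptpn11 (SHP-2) fell from 36.7 ± 1.86 to 28.6 ± 1.65 FPKM (log2 change -0.35, adjusted p = 0.0056).

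Genes induced through the receptor held both directions. Of 18 NR4A, EGR and NFAT genes 6 were lower and 4 higher, and 2 lower calls, Nr4a2 (8.9 ± 0.65 to 5.54 ± 1.14 FPKM, log2 change -0.61, adjusted p = 0.00972) and Egr4 (1.35 ± 0.155 to 0.532 ± 0.0983 FPKM, log2 change -0.62, adjusted p = 0.00297), were stable. Nr4a1 (204 ± 12.7 to 159 ± 49.3 FPKM, adjusted p = 0.138), Egr1 (67.1 ± 6 to 76 ± 17.6 FPKM) and Egr2 (31.2 ± 1.67 to 35.9 ± 3.71 FPKM) did not pass. Here the higher count was 1 without control 2, 0 without control 3 and 2 without Fosl2 Tg 3 and the lower count was 2 without control 2. Of 14 NF-kB genes, 4 were lower and 3 higher. The feedback inhibitors Nfkbia (132 ± 4.26 to 100 ± 2.44 FPKM, log2 change -0.39, adjusted p = 0.00129) and Tnfaip3 (25.2 ± 1.87 to 18.5 ± 1.17 FPKM, log2 change -0.43, adjusted p = 0.00427) and the subunit Nfkb2 (93.7 ± 2.64 to 74.9 ± 5.49 FPKM, log2 change -0.32, adjusted p = 0.00945) fell, and the subunit Rela (50.9 ± 2.03 to 61.9 ± 2.89 FPKM, log2 change 0.28, adjusted p = 0.00823) and the deubiquitinase Cyld (13.7 ± 0.891 to 18.2 ± 1.06 FPKM, log2 change 0.38, adjusted p = 0.00481) rose, all stable. Nfkb1 (215 ± 10.7 to 194 ± 14.8 FPKM) did not pass.

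Among 10 dual-specificity phosphatases, which inactivate MAP kinases, 4 were lower and 2 higher. Dusp4 had 19.8, 22.6 and 19.3 FPKM in the control libraries and 7.29, 9.97 and 7.54 FPKM in Fosl2 Tg. Dusp14 had 1.32, 1.31 and 1.6 FPKM in the control libraries and 0.282, 0.418 and 0.207 FPKM in Fosl2 Tg. Both fell without overlap, by 1.23 (adjusted p = 0.000862) and 0.89 (adjusted p = 0.00141) on the log2 scale. Dusp1 fell from 7.57 ± 0.328 to 5 ± 0.42 FPKM (log2 change -0.52, adjusted p = 0.00226). Dusp10 rose from 7.58 ± 0.529 to 10.7 ± 0.967 FPKM (log2 change 0.44, adjusted p = 0.00505). Dusp2, the most abundant of the list in FPKM, had 209.7 ± 3.63 to 219 ± 15.9 FPKM and did not pass. Of 8 RGS genes 2 were higher and 1 lower. The stable one was Rgs16, given above, and Rgs1 (64.8 ± 11.1 to 48.4 ± 12 FPKM) did not pass. In the cytokine signalling list of 22 STAT, JAK, SOCS and PIM genes, 4 were higher and 3 lower (8.53% and 15.1% over all genes). The higher count ranged from 2 (without control 2, control 3 or any library labelled Fosl2 KO) to 4. The lower count was 1 without control 2 or 3. The kinase Pim1 had 74.5, 78.7 and 70.8 FPKM in the control libraries and 129.5, 124 and 128 FPKM in Fosl2 Tg and rose (log2 change 0.76, SE 0.09, adjusted p = 0.00134). Smaller stable changes were those of Tyk2 upward (15.5 ± 1.27 to 19.8 ± 0.447 FPKM, log2 change 0.34, adjusted p = 0.00859) and of Stat5a downward (64.1 ± 2.63 to 51.2 ± 3.27 FPKM, log2 change -0.32, adjusted p = 0.00972). The call of Stat5a held under 2 of 3 scalings. Of 20 TGF-beta pathway genes 4 were higher and 2 lower, and the higher count was 2 without control 2 or 3. The receptor Tgfbr1 (8.72 ± 0.904 to 12.2 ± 0.504 FPKM, log2 change 0.44, adjusted p = 0.00517) and the co-repressor Tgif1 (32.2 ± 0.0926 to 39.3 ± 1.81 FPKM, log2 change 0.28, adjusted p = 0.00425) rose. The accessory receptor Tgfbr3 had 14.4, 12 and 11.4 FPKM in the control libraries and 5.98, 7.28 and 6.51 FPKM in Fosl2 Tg and fell (log2 change -0.84, SE 0.09, adjusted p = 0.00123). Of 7 IRF and BACH genes 1 was higher and 2 lower. Of these Irf8, a stable call, fell from 22.6 ± 1.74 to 13.6 ± 2.23 FPKM (log2 change -0.71, adjusted p = 0.0055). Myc had 183 ± 9.23 to 149.9 ± 13.8 FPKM, a decrease (adjusted p = 0.0281) that passed under 1 of 3 scalings and was lost without control 2 or 3 or library 2 labelled Fosl2 KO (adjusted p up to 0.0986).

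Genes of naive and quiescent T cells held higher calls alone, with the largest differences in Fosl2 Tg library 1. Of 41 tested, 12 were higher, 5 of them stable, and none lower, with a median log2 change of 0.36 against -0.03 for all genes. Relative to the control mean, the median member lay at 0.15, -0.04 and -0.13 in controls 1 to 3 and at 0.74, 0.21 and 0.23 in Fosl2 Tg libraries 1 to 3. Control 1 thus lay close to Fosl2 Tg 2 and 3. Klf2, a factor of quiescence that drives S1pr1, had 39.4, 24.5 and 23.1 FPKM in the control libraries and 131, 46.6 and 45.9 FPKM in Fosl2 Tg. All Fosl2 Tg libraries lay above control, control 1 was the highest of its group and library 1 of Fosl2 Tg stood far above the other 2, and the gene did not pass (adjusted p = 0.0605). Igfbp4 had 53.4, 52.8 and 50.4 FPKM in the control libraries and 89.8, 104 and 99.2 FPKM in Fosl2 Tg, with a stable call (log2 change 0.89, SE 0.08, adjusted p = 0.000742). Zfp36l2, an RNA-binding protein that destabilizes messages (60.6 ± 3.07 to 88.7 ± 10.6 FPKM, log2 change 0.54, adjusted p = 0.00428), and Rapgef6 (38.1 ± 5.23 to 53.9 ± 3.81 FPKM, log2 change 0.49, adjusted p = 0.0112) were stable too, next to Ccr7 and Actn1. Tcf7, which encodes TCF1, had 243, 224 and 198 FPKM in the control libraries and 473, 286 and 294 FPKM in Fosl2 Tg (log2 change 0.62, adjusted p = 0.0393), a call lost without control 2 or 3 or library 1, 2 or 3 labelled Fosl2 KO (adjusted p up to 0.123). Lef1 (80.3 ± 4.17 to 105 ± 23.3 FPKM, adjusted p = 0.0746) did not pass. By library left out, the higher count was 5 without control 2 and 7 without control 3.

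The Gimap family of small GTPases, clustered on 1 chromosome and linked to lymphocyte survival, had higher means in all 8 members. The groups did not overlap in any of them, against 45.2% of all genes tested that did not overlap in either direction, and 5 passed. The stable call was Gimap6, with 113, 103 and 103 FPKM in the control libraries and 238, 162 and 175 FPKM in Fosl2 Tg (log2 change 0.82, SE 0.13, adjusted p = 0.00444). In the family the higher count ranged from 2 (without control 2 or 3) to 7 (without Fosl2 Tg 2 or 3). Ly6 genes rose in part: Ly6e, with 99.5, 97.5 and 109 FPKM in the control libraries and 174, 137 and 169 FPKM in Fosl2 Tg, had a stable call (log2 change 0.64, SE 0.10, adjusted p = 0.00521). Ly6a (Sca-1) had 5.26, 5.95 and 4.55 FPKM in the control libraries and 42.6, 10.7 and 16.2 FPKM in Fosl2 Tg, with a call lost without control 2 or 3 (adjusted p up to 0.0721). The near copies Ly6c1 (14.9, 9.92 and 9.23 FPKM against 157, 23.5 and 26 FPKM, adjusted p = 0.0543) and Ly6c2 (3.98, 3 and 2.62 FPKM against 43.6, 7.23 and 7.84 FPKM, adjusted p = 0.048) were highest in Fosl2 Tg library 1 and may share reads. The call of Ly6c2 was lost without control 1, 2 or 3 or library 1, 2 or 3 labelled Fosl2 KO (adjusted p up to 0.134). Thy1 fell from 213 ± 10.3 to 158 ± 14.4 FPKM (log2 change -0.44, adjusted p = 0.0119). The Ifitm family of small membrane proteins, known for restricting virus entry, fell in its 3 tested members. Ifitm2 had 76, 80.6 and 90.7 FPKM in the control libraries and 14.3, 26.9 and 17.7 FPKM in Fosl2 Tg. Ifitm3 had 4.53, 5.89 and 5.52 FPKM in the control libraries and 0.963, 1.9 and 0.833 FPKM in Fosl2 Tg. The groups stood apart in both, with log2 changes of -2.06 (adjusted p = 0.00088) and -1.52 (adjusted p = 0.00159). Ifitm1 fell from 1.61 ± 0.332 to 0.602 ± 0.292 FPKM (log2 change -0.71, adjusted p = 0.0123). Other interferon-stimulated genes did not share a direction, with 4 of 28 higher and 4 lower (8.53% and 15.1% over all genes, median log2 change 0.00). Stable among them were Oas3 (0.612 ± 0.139 to 2.29 ± 0.297 FPKM, log2 change 1.03, adjusted p = 0.00088) and Gbp3 (2.49 ± 0.264 to 5.17 ± 0.71 FPKM, log2 change 0.82, adjusted p = 0.00209) upward and the RNA sensor Ifih1 (3.56 ± 0.111 to 1.22 ± 0.205 FPKM, log2 change -1.04, adjusted p = 0.000862) downward. Isg15, Ifit1 and Irf7 were below the filter. In that list the higher count was 2 without control 2 or 3 and the lower count ranged from 1 (without control 2) to 9 (without Fosl2 Tg 1).

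Among 33 adhesion genes, 7 were higher and 8 lower (8.53% and 15.1% over all genes), with 5 and 4 stable calls. The 6 tested integrin alpha chains held no call. The tetraspanins Cd9 and Cd81, which organize membrane receptors, moved in opposite directions. Cd9 had 52.6, 49.3 and 51.4 FPKM in the control libraries and 99.2, 74.5 and 74.2 FPKM in Fosl2 Tg. Cd81 had 38, 38.2 and 40.4 FPKM in the control libraries and 22.6, 24.1 and 21.5 FPKM in Fosl2 Tg. The groups did not overlap in either, with log2 changes of 0.67 (adjusted p = 0.00495) and -0.75 (adjusted p = 0.00078). Alcam, a ligand of CD6, rose from 8.44 ± 0.594 to 12.8 ± 0.476 FPKM (log2 change 0.55, adjusted p = 0.00165). The fucosyltransferase Fut7, which builds selectin ligands, fell from 2.25 ± 0.215 to 1.19 ± 0.183 FPKM (log2 change -0.57, adjusted p = 0.00432). The SLAM receptor Slamf6 fell from 74.4 ± 2.41 to 55.8 ± 6.1 FPKM (log2 change -0.41, adjusted p = 0.0126). By library left out, the lower count was 4 without control 2 or 3.

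Of 15 BCL2 family genes, 6 were lower and 2 higher. Bcl2 itself, which blocks apoptosis, had 16.5, 13.3 and 11.6 FPKM in the control libraries and 22.5, 20.4 and 21.5 FPKM in Fosl2 Tg. Bcl2l1, which encodes BCL-XL, had 100.1, 108 and 109 FPKM in the control libraries and 53.6, 77 and 65.7 FPKM in Fosl2 Tg. They moved apart, Bcl2 up (log2 change 0.62, SE 0.11, adjusted p = 0.00679) and Bcl2l1 down (log2 change -0.70, SE 0.11, adjusted p = 0.00555), with no overlap of the groups. Of the BH3-only genes, which promote death, Bcl2l11 (BIM) rose from 22.8 ± 1.49 to 33.4 ± 1.99 FPKM (log2 change 0.53, adjusted p = 0.00175). Pmaip1 (NOXA) fell from 2.07 ± 0.096 to 1.11 ± 0.148 FPKM (log2 change -0.54, adjusted p = 0.00972). These 4 calls were stable. The near-identical genes of the A1 group (Bcl2a1a, Bcl2a1b and Bcl2a1d) were lower as well, without stable calls, and their reads may be shared. Mcl1 (103 ± 6.67 to 105 ± 8.14 FPKM) and Bax (148 ± 7.05 to 133 ± 8.41 FPKM) did not pass. In this family the lower count was 2 without control 2 or 3 and 3 without Fosl2 Tg 1. Of 21 p53 pathway genes, 3 were higher and 5 lower (8.53% and 15.1% over all genes), with 1 stable call each way. Plk2 had 7.31, 8.08 and 7.85 FPKM in the control libraries and 1.34, 1.99 and 1.53 FPKM in Fosl2 Tg and fell (log2 change -1.75, SE 0.09, adjusted p = 5.51e-05). Trp53inp1 rose from 27.2 ± 4.46 to 46.8 ± 9.43 FPKM (log2 change 0.75, adjusted p = 0.0119). Trp53 (113 ± 5.46 to 109.5 ± 5.96 FPKM) and Mdm2 (27 ± 0.739 to 26 ± 1.06 FPKM) did not pass. Here the higher count ranged from 1 (without control 2, Fosl2 Tg 2, Fosl2 Tg 3, library 1 or 3 labelled Fosl2 KO) to 3 and the lower count ranged from 1 (without control 1, 2 or 3 or library 1 labelled Fosl2 KO) to 3 (without Fosl2 Tg 2 or 3).

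In lists of growth and metabolism most calls were lower and few were stable. In the glycolysis and hypoxia list 17 of 32 were lower and 2 higher (median log2 change -0.27), and the lower count was 3 without control 2, 7 without control 3 and 9 without library 3 labelled Fosl2 KO. Equalizing the summed FPKM without small RNA genes left 11 lower calls. Stable were the lactate exporter Slc16a3 (4.33 ± 0.208 to 2.46 ± 0.211 FPKM, log2 change -0.62, adjusted p = 0.000966) and P4ha1 (9.85 ± 0.228 to 7.62 ± 0.136 FPKM, log2 change -0.33, adjusted p = 0.00136) downward, and the oxygen sensor Egln3 upward (1.41 ± 0.183 to 3.52 ± 0.798 FPKM, log2 change 0.90, adjusted p = 0.00261). The enzyme Tpi1 had 174, 189 and 208 FPKM in the control libraries and 91.7, 136 and 135 FPKM in Fosl2 Tg and fell (log2 change -0.67, adjusted p = 0.0152), a call lost without control 2 or 3 (adjusted p up to 0.0581). Gapdh (193 ± 16.2 to 171 ± 18.7 FPKM), Pkm (680.5 ± 51.2 to 554 ± 63.4 FPKM) and Hif1a (55.8 ± 1.52 to 55.4 ± 7.07 FPKM) did not pass.

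For the respiratory chain 16 of 77 were lower, for the mitochondrial ribosome 19 of 76, for ribosome biogenesis 10 of 43 and for the cytosolic ribosome 4 of 82, with no higher calls in these lists. Over all genes 15.1% were lower. Their median log2 changes were -0.19, -0.23, -0.23 and -0.17, and -0.09, -0.13, -0.13 and -0.07 after equalizing the summed FPKM without small RNA genes. That scaling left 9, 13, 7 and 2 lower calls and gave 1 higher call in the mitochondrial ribosome. Relative to the control mean, the median respiratory chain gene lay at -0.101, -0.037 and 0.144 in controls 1 to 3. In Fosl2 Tg 1 to 3 it lay at -0.346, -0.1 and -0.142. For the mitochondrial ribosome the values were -0.113, -0.009 and 0.12 in control and -0.392, -0.127 and -0.168 in Fosl2 Tg. In both lists control 1 lay close to Fosl2 Tg 2, and Fosl2 Tg 1 was the lowest. For the respiratory chain the lower count ranged from 2 (without control 2 or 3) to 21 (without control 1). For the mitochondrial ribosome the lower count ranged from 2 (without control 3) to 31 (without control 1 or Fosl2 Tg 2). For ribosome biogenesis the lower count ranged from 2 (without control 2 or 3) to 15 (without control 1 or Fosl2 Tg 2), and for the cytosolic ribosome the lower count ranged from 0 (without control 2, control 3 or Fosl2 Tg 3) to 6 (without Fosl2 Tg 2). The cytochrome oxidase subunit Cox8a (436 ± 15 to 330.3 ± 24.7 FPKM, log2 change -0.40, adjusted p = 0.00504) and the mitochondrial ribosomal proteins Mrps34 (68.6 ± 4.77 to 53.9 ± 3.37 FPKM, log2 change -0.34, adjusted p = 0.00997) and Mrps5 (53.8 ± 3.57 to 43.4 ± 2.07 FPKM, log2 change -0.30, adjusted p = 0.0108) had stable calls. Of 18 genes of the ATF4 programme and serine and folate metabolism 6 were lower and 1 higher, with stable calls for Shmt1 (89.8 ± 7.17 to 59.2 ± 9.5 FPKM, log2 change -0.60, adjusted p = 0.00972) and Atf5 (5.63 ± 0.386 to 3.8 ± 0.282 FPKM, log2 change -0.47, adjusted p = 0.00318). In this list the lower count was 2 without control 2 or 3.

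Over all genes tested, 15.1% were called lower and 8.53% higher. In the remaining lists, lower calls were 8 of 44 for translation factors, tRNA synthetases and snoRNA hosts, 4 of 38 for the proteasome, 4 of 12 for DNA methylation enzymes, 2 of 33 for chaperones and 1 of 24 for cholesterol synthesis (Dhcr7, 16.3 ± 0.901 to 12.4 ± 0.418 FPKM, log2 change -0.37, adjusted p = 0.00258). Chaperones also held 1 higher call, and amino acid and iron uptake 1 of 11. Of these, the calls of Dhcr7 and of the chaperones Sdf2l1 (57.1 ± 5.38 to 41.3 ± 4.45 FPKM, log2 change -0.46, adjusted p = 0.0106) and Dnajb9 (7.08 ± 0.456 to 8.64 ± 0.235 FPKM, log2 change 0.26, adjusted p = 0.0138) were stable. Autophagy genes were higher in 5 of 26 and lower in 2, and the stable call was Gabarapl1 (13.8 ± 0.701 to 7.82 ± 0.578 FPKM, log2 change -0.75, adjusted p = 0.000365), while Sqstm1 (51.9 ± 1.52 to 57.2 ± 10.9 FPKM) did not pass. For translation the lower count ranged from 0 (without control 2 or 3) to 12 (without Fosl2 Tg 2). For the proteasome the lower count ranged from 0 (without control 2) to 11 (without control 1), and for DNA methylation the lower count ranged from 0 (without control 2) to 4. For autophagy the higher count ranged from 0 (without control 2) to 5. Among 10 genes of the MYC network 2 were higher and 2 lower, none stable. In antigen presentation 1 of 21 was higher and 2 were lower. B2m (1033 ± 32.1 to 1116 ± 122 FPKM) and H2-K1 (664 ± 32.3 to 674 ± 151 FPKM) did not pass, and Cd74, the class II invariant chain, fell from 15.3 ± 1.85 to 6.71 ± 0.927 FPKM (log2 change -1.08, adjusted p = 0.000765). The summed B cell markers given above were lower in Fosl2 Tg too, at far lower levels, and a link to Cd74 was not tested. H2-Q6 had 0.455, 0.00339 and 0.00049 FPKM in the control libraries and 2, 4.89 and 3.86 FPKM in Fosl2 Tg (log2 change 1.96, SE 0.24, adjusted p = 0.00193). It has near copies, of which H2-Q7 (24.5 ± 0.977 to 18.8 ± 9.09 FPKM) did not pass, so its reads may be shared with them.

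**Figure D5:**
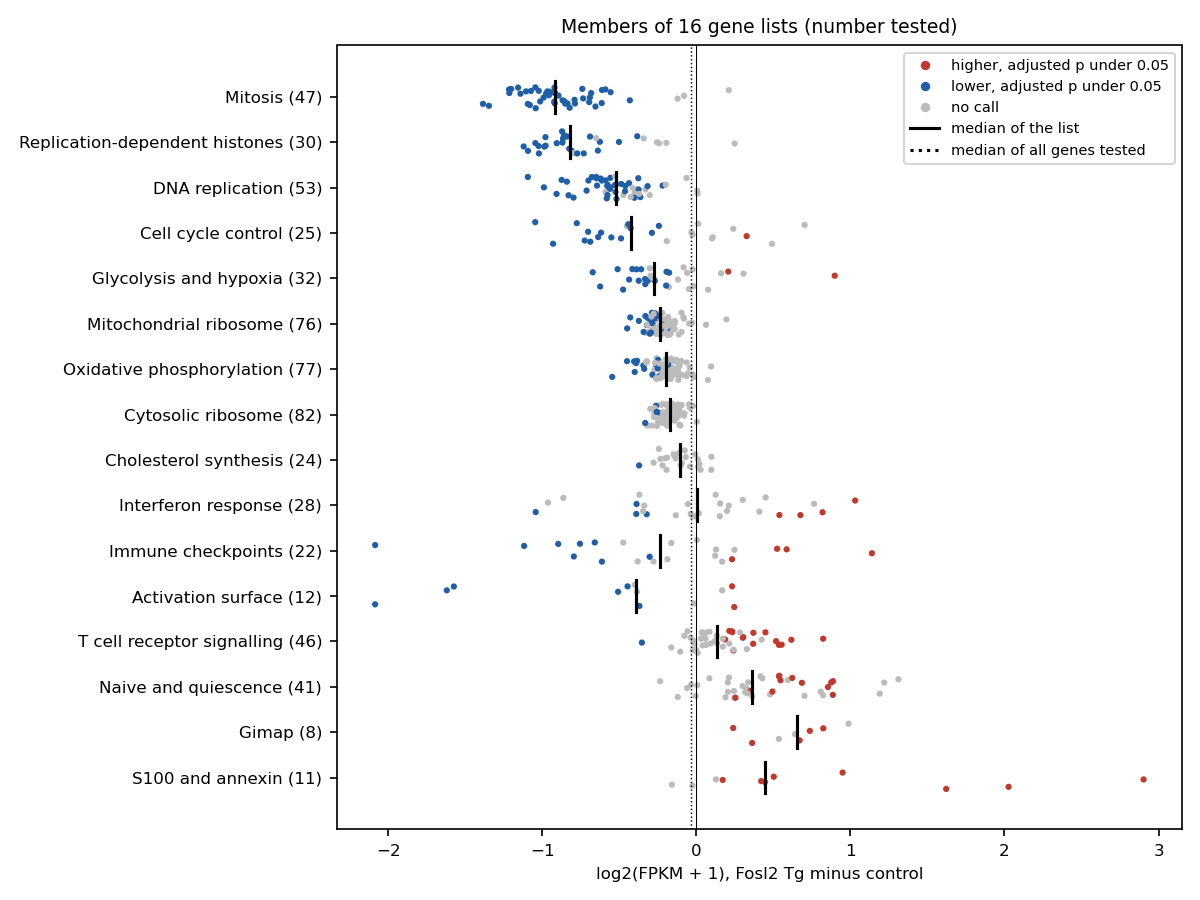
Log2 change (Fosl2 Tg minus control, log2(FPKM + 1)) of each tested member of 16 lists; red points passed as higher, blue as lower, grey did not pass. Black bars are list medians and the dotted line is the median of all genes tested, -0.03; the medians are -0.92 for mitosis, -0.52 for DNA replication, 0.36 for naive and quiescence and 0.45 for S100 and annexin genes.

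Beyond these pathways, the stable calls with the largest changes covered several functions. Of 5 enzymes tested that were listed for large changes in earlier results of these data, which is no independent evidence, 3 were higher, all stable, and none lower. The secreted serine protease Prss12 had 1.78, 1.2 and 1.01 FPKM in the control libraries and 17.4, 11.2 and 14 FPKM in Fosl2 Tg, a 10.7-fold increase (log2 change 2.70, SE 0.17, adjusted p = 0.000115). The steroid dehydrogenase Akr1c18 had 6.22, 8.56 and 8.46 FPKM in the control libraries and 29.6, 41.1 and 36.1 FPKM in Fosl2 Tg (log2 change 2.06, SE 0.15, adjusted p = 0.000189). Its paralogs Akr1c12 (3.57 ± 0.568 to 4.42 ± 0.948 FPKM) and Akr1c13 (6.24 ± 0.431 to 7.4 ± 1.02 FPKM) did not pass. Padi2, a peptidylarginine deiminase, had 1.72, 1.77 and 1.51 FPKM in the control libraries and 10.3, 5.89 and 7.84 FPKM in Fosl2 Tg (log2 change 1.73, SE 0.16, adjusted p = 0.000742). In these 3 genes all Fosl2 Tg libraries lay above all controls. The glutathione transferase family member Mgst3 rose from 3.12 ± 0.721 to 8.45 ± 0.387 FPKM (log2 change 1.21, adjusted p = 0.00145). The long-chain acyl-CoA synthetase Acsbg1 rose from 0.495 ± 0.021 to 3.36 ± 0.57 FPKM (log2 change 1.54, adjusted p = 0.000139). The mitochondrial ATP-Mg and phosphate carrier Slc25a24 rose from 0.668 ± 0.0868 to 3.76 ± 0.881 FPKM (adjusted p = 0.000402). The peptidase Dpp4 (CD26) rose from 5.12 ± 0.632 to 12 ± 4.47 FPKM (log2 change 1.04, adjusted p = 0.0108).

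Signalling genes among the increases were Dtx1, a regulator of Notch signalling (2.4 ± 0.153 to 7.15 ± 0.488 FPKM, log2 change 1.26, adjusted p = 4.35e-05), Smo, the transducer of Hedgehog signalling (4.7 ± 0.219 to 10.3 ± 1.25 FPKM, log2 change 0.99, adjusted p = 0.000357), and Tiam1, an exchange factor that activates RAC. Tiam1 had 17.9, 18.2 and 17.2 FPKM in the control libraries and 41.2, 45.2 and 44.7 FPKM in Fosl2 Tg (log2 change 1.25, SE 0.08, adjusted p = 0.000139). The groups did not overlap in it, nor in the paxillin relative Lpxn (8.94 ± 0.188 to 20.2 ± 2.94 FPKM, log2 change 1.09, adjusted p = 0.000586) or the dystrophin relative Utrn (9.37 ± 2.65 to 19.3 ± 4.46 FPKM, log2 change 0.98, adjusted p = 0.0126). Pyhin1, of the interferon-inducible HIN-200 family, had 11, 7.82 and 7.15 FPKM in the control libraries and 42.7, 20.1 and 23 FPKM in Fosl2 Tg (log2 change 1.56, SE 0.26, adjusted p = 0.00613). The nuclear long noncoding RNA Neat1, a scaffold of paraspeckles, had 49.1, 38.5 and 33.2 FPKM in the control libraries and 109, 69.9 and 70.1 FPKM in Fosl2 Tg (log2 change 1.01, SE 0.20, adjusted p = 0.0108). The transcription factor Creb3l2 rose from 1.65 ± 0.244 to 4.32 ± 0.388 FPKM (log2 change 1.01, adjusted p = 0.000478). Neurl3 rose from 12.2 ± 3.42 to 35.8 ± 13 FPKM (log2 change 1.45, adjusted p = 0.0078). Evi2b rose from 5.65 ± 0.589 to 16.4 ± 3.74 FPKM (log2 change 1.37, adjusted p = 0.000882).

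Among the largest stable decreases outside the lists was Marcksl1, an actin-linked protein kinase C substrate. It had 109, 115 and 131 FPKM in the control libraries and 36.3, 39 and 37.5 FPKM in Fosl2 Tg and fell (log2 change -1.62, SE 0.07, adjusted p = 1.91e-05). Axl, a receptor tyrosine kinase of the TAM family, had 7.73, 7.34 and 7.59 FPKM in the control libraries and 1.62, 2.36 and 1.77 FPKM in Fosl2 Tg (log2 change -1.56, SE 0.09, adjusted p = 7.20e-05). The bacterial peptidoglycan sensor Nod1 had 7.14, 5.51 and 4.65 FPKM in the control libraries and 2.49, 1.68 and 1.04 FPKM in Fosl2 Tg (log2 change -1.32, SE 0.20, adjusted p = 0.00415). No Fosl2 Tg library reached a control in these 3 genes. The exchange factor family member Farp1 fell from 5.41 ± 0.696 to 0.795 ± 0.284 FPKM (log2 change -1.84, adjusted p = 0.000141). The RAP exchange factor Rasgef1b fell from 4.19 ± 0.233 to 0.968 ± 0.165 FPKM (log2 change -1.40, adjusted p = 7.54e-05). The armadillo protein Pkp4 fell from 17.9 ± 0.168 to 6.25 ± 0.673 FPKM (log2 change -1.39, adjusted p = 4.24e-05). The secreted Igfbp7 fell from 2.62 ± 0.898 to 0.313 ± 0.144 FPKM (log2 change -1.44, adjusted p = 0.00155). Tal2, a basic helix-loop-helix factor, fell from 2.29 ± 0.438 to 0.4 ± 0.0529 FPKM (log2 change -1.22, adjusted p = 0.000325). Lypd6b fell from 5.66 ± 0.00517 to 1.68 ± 0.546 FPKM (log2 change -1.34, adjusted p = 0.000765).

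The authors' deposited table gave the same comparison from their own test, on the same libraries, so it is no independent support. At q of at most 0.05 the authors' deposited table held 2678 entries, 1478 higher and 1200 lower in Fosl2 Tg, which puts 55.2% of them in the higher direction against 36.1% of the limma calls. By a unique symbol, 3354 of the 10340 tested genes matched an entry of the authors' deposited table, and 2212 of these entries had q of at most 0.05. Of the 2212, 1526 were called by limma in the same direction, which is 69.0% of them and 62.5% of all limma calls. Limma calls without a matched entry could not be shared and still count in the shares of limma calls given here. The number called in the opposite direction was 0. Of the stable limma calls, 726 (86.9%) were among the entries of the authors' deposited table. The stable lower calls of Ccl1 (q = 0.19 in the authors' test) and Cxcr6 (q = 0.169) were not among them. Klf2, S1pr1, Il7r, Cxcr4 and Cdkn1b, which did not pass in limma, were called higher by the authors' test (q = 0.000503 each).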

How the data were processed

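Poly-A RNA was sequenced from 9 directional libraries, per the labels. The submitters' processing notes list TopHat, Cufflinks, Cuffdiff and build mm10. Their versions, the annotation and the strand setting are not stated there. The deposited values per library are FPKM, per the file headers. The authors also deposited a comparison of groups with its log2 changes, and with q-values beside raw p-values. Depth is not given as counts, so no counting intervals are printed.

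Genes whose FPKM averaged 1 or more across all libraries were fitted as log2(FPKM + 1) in limma 3.58.1 (R 4.3.3), with a mean-variance trend, all 9 libraries in the fit (6 residual degrees of freedom) and Benjamini-Hochberg adjustment over 10340 genes at 0.05. A fold change on this scale understates the change of low genes, and a fold is the ratio of mean FPKM. The FPKM columns, not raw reads, were the start, so reads shared between near copies of a gene were split upstream in a way not recorded.

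The 48 gene lists, the motifs and the groups of members were chosen with earlier results of these data known. Named genes are members of the lists, with stable calls preferred as examples, and the 30 largest stable changes in each direction. The ranking of these changes left out predicted genes, pseudogenes, small RNA genes and antigen receptor segments. It also left out symbols that occur more than once or were turned into dates, and genes whose groups overlapped. Promoters are the 250 bases before the RefSeq start in GRCm38.p6. The alternatives tried were other pseudocounts, filters, scalings, sets of libraries, array weights, a replicate block, no trend, and, added after seeing the data, small RNA genes left out of the fit. The 3 libraries labelled Fosl2 KO were not compared here.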

Additional observations from a re-analysis of the deposited data

Results flagged for a closer look

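In the libraries labelled Fosl2 KO, which are compared with no group here and enter only the filter on low values and the estimate of the spread, mean Fosl2 FPKM was 18.04 ± 1.09 (SD, n = 3), above every control library, although the label names a deletion of the gene; the cause was not tested.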

How the results depend on the processing

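As reported, 882 genes were higher and 1558 lower. With only the 6 control and Fosl2 Tg libraries 861 genes were called (287 and 574), and with array weights, whose estimation stopped before convergence, 5991 (2370 and 3621). After equalizing the summed FPKM without small RNA genes 966 genes were lower. Leaving out 1 library at a time gave 879 to 2529 calls (321 to 939 higher, 558 to 1590 lower), the lowest without control replicate 2 and the highest without control replicate 1. With a replicate block 1199 genes were higher and 2060 lower. The labels do not say whether libraries with the same number belong together. Deviations of same-numbered control and Fosl2 Tg libraries correlated at 0.0523, -0.0844 and 0.0985. With 3 libraries per group these values cannot decide whether the libraries are paired. Of 468 called genes of the lists or among the largest changes, 210 passed in every alternative, of 21, that tested them. The number that changed direction was 0. Genes with a mean under 5 FPKM were absent from the alternative with that filter. Calls lost numbered 235 with 6 libraries, 98 without a filter, 74 after equalizing the sum and at most 50 under each other alternative that kept all libraries. With the 50 bases after the start added, 4.275% of all promoters held the AP-1 letters against 3.746%, the CHR letters went from 30% to 70% of mitosis promoters, and the E2F letters from 22.7% to 38.6% of DNA replication promoters. Depth limits the genes lowest in FPKM most, and genes under 1 FPKM on average over the 9 libraries were not tested. The cause of these differences was not tested.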
